A study of Homo sapiens with 2 samples.

Results

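SURF4 and the other receptors that carry secretory cargo between the endoplasmic reticulum and the Golgi form a group of 10 genes among the 58302 in the expression table: SURF4, LMAN1, MCFD2, LMAN2, KDELR1, KDELR2, KDELR3, TMED2, TMED9 and TMED10. They were taken by gene symbol. The group was chosen by the FPKM difference of SURF4 between the libraries, which was already known, and filled with genes of like function, so the values below are a description. The cells were HL60, a human acute myeloid leukaemia line with promyelocyte character, and carried an EIF2S3 transgene in the Retro-X Tet-Off Advanced system, which doxycycline (DOX) switches off. EIF2S3 encodes the gamma subunit of eIF2, the factor that brings the initiator tRNA to the ribosome. RNA was sequenced in 2 libraries of these HL60-EIF2S3 cells, 1 labelled DOX(-), untreated, with the transgene meant to be on, and 1 labelled DOX(+), treated with doxycycline, with the transgene meant to be off. Dose, duration and a doxycycline-treated line without the transgene were not given in the labels, so the transgene and doxycycline itself cannot be told apart. With 1 library per condition no difference has a replicate check, and intervals cover counting error only.

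Newly made secretory and membrane proteins leave the endoplasmic reticulum in COPII-coated vesicles, and escaped residents return from the Golgi in COPI-coated vesicles. Soluble proteins cannot touch either coat, so membrane-spanning receptors bind them on the luminal side and the coat on the cytosolic side. SURF4 exports a range of soluble proteins, LMAN1 with its soluble partner MCFD2 exports coagulation factors V and VIII, LMAN2 is a related mannose-binding lectin, the KDEL receptors retrieve luminal chaperones, and the p24 proteins TMED2, TMED9 and TMED10 work in joined complexes that carry GPI-anchored proteins among others. Leukaemic promyelocytes make large amounts of granule proteins that enter by this route.

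SURF4 was the member that stood furthest apart. It measured 8.80 FPKM in the DOX(-) library and 36.4 FPKM in the DOX(+) library, where FPKM is fragments per kilobase of gene length and per unit of sequencing depth. The DOX(+) level was thus 4.14-fold the DOX(-) level, with a 95% counting interval of 3.88 to 4.42 from 1129 and 5222 fragments. TMED2, the next furthest, measured 45.7 FPKM in DOX(-) against 73.5 in DOX(+), which is 1.61-fold higher in DOX(+) with an interval of 1.55 to 1.67. The other 7 members with a measurable level lay within 1.5-fold between the libraries. In bulk RNA, a smaller share of cells with a transcript and less of it per cell cannot be told apart.

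The 2 libraries were scaled to 16577675 fragments in DOX(-) and 18521278 in DOX(+), totals recovered from the FPKM values themselves. EIF2S3 measured 132.9 FPKM in DOX(-) against 126.2 in DOX(+), a ratio whose interval ran from 1.02 to 1.08, so the gene total barely separated the libraries and each is called by its label here. Genes of the mitochondrial genome took 22.5% of summed FPKM in DOX(-) and 27.7% in DOX(+), and their part in the member differences was not tested beyond the rescaling given below. Of 9 promyelocyte markers, 8 were above 1 FPKM, with ELANE, neutrophil elastase, at 396.4 and 299.4 FPKM. MPO, myeloperoxidase, also on the list of promyelocyte markers, was at 0.274 and 0.469 FPKM only, from 22 and 42 fragments. The reason for this low level was not tested. Of 8 markers of other cell types, 5 (CD3E, MS4A1, HBB, EPCAM and PPBP) were listed at 0 in both libraries, and their summed level of 11.1 FPKM in DOX(-) against 12.1 in DOX(+) came mostly from PECAM1 (10.8 and 11.8 FPKM), which myeloid cells also express.

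The sequences upstream of the RefSeq start of 3 members are shown because they share a short element that the search below turned on. Each is 30 bases of RefSeq promoter sequence in build GRCh38.p14, read 5′ to 3′ on the gene's own strand. The capitals mark the letters ACGTGGC, or their reverse complement GCCACGT, a form of the Golgi apparatus stress response element, a motif known from promoters of Golgi genes. The SURF4 stretch is chr9:133376095-133376124 on the minus strand, that of TMED2 is chr12:123584446-123584475 on the plus strand and that of KDELR3 is chr22:38468038-38468067 on the plus strand.
SURF4: aggcttggcctACGTGGCagccgctggagc
TMED2: tgcctccctttACGTGGCagctgcgggagc
KDELR3: cggccgccctgGCCACGTcaccgcccggcc

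Levels of different genes can be compared only per length, and the length behind the deposited FPKM mattered. The values came out as whole fragments when each gene's length was the sum of all its distinct annotated exons, so that overlapping exons of different transcripts were counted repeatedly. In genes of several transcripts and under 100 fragments, this length gave whole fragments, within 0.05, for 92.3% of genes in DOX(-) and 91.5% in DOX(+). The merged exon length, which counts each base once, gave 10.01% and 9.62%. The length used was the same in both libraries, so the choice of length leaves a gene's ratio between libraries as it is, but not its level. Whether the mix of short and long transcripts differed between the libraries was not tested, and SURF4 transcripts ran from 400 to 3200 bases. For SURF4 the summed exons came to 7736 bases and the merged exons to 3446, and for MCFD2 to 17774 and 5994. Fragments were whole in both libraries for 9 members, and MCFD2 was the exception, so its fragment counts and its merged level are approximate.

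In the DOX(-) library TMED2 had the highest deposited level of the 10 members, and SURF4 was ninth. LMAN2 at 30.8 FPKM, LMAN1 at 30.8 FPKM and TMED10 at 29.7 FPKM followed TMED2, and their counting intervals overlapped. KDELR1 at 26.8 FPKM, KDELR2 at 26.5 FPKM and TMED9 at 26.0 FPKM came next, again with overlapping intervals. MCFD2 at 10.9 FPKM, with an interval of 10.5 to 11.3, and SURF4 at 8.80 FPKM, with 8.30 to 9.33, were apart from those and from each other. In the DOX(+) library SURF4 was second at 36.4 FPKM, with an interval of 35.5 to 37.4 that overlapped that of TMED9, 33.6 to 36.1. With merged exons as the length SURF4 stood at 19.8 and 81.8 FPKM, and its places, ninth and second, were the same on that scale. The order of other genes depended on the scale: LMAN1 was 2.83-fold above MCFD2 in DOX(-) and 2.82-fold in DOX(+) by deposited FPKM, and 1.11-fold above it in both libraries per merged kilobase. The spread between cultures is not known, so neighbours in either order are not read as different beyond counting error.

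**Figure D1:**
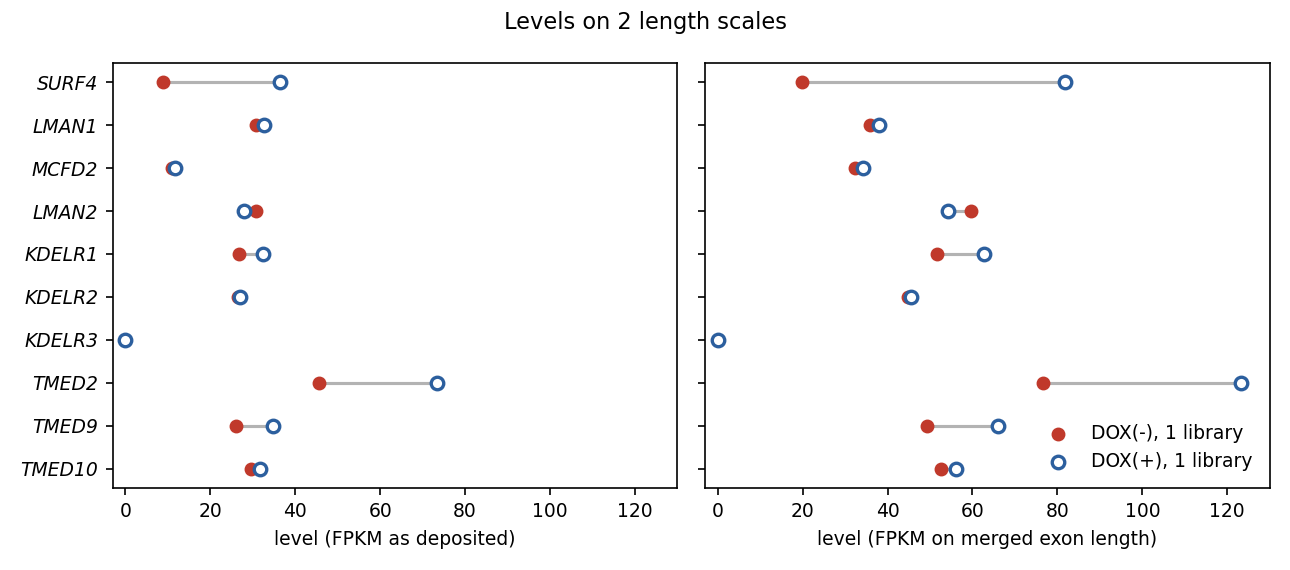
Level of each receptor gene in DOX(-) (filled red) and DOX(+) (open blue) on a linear axis, in FPKM as deposited (left) and in FPKM on merged exon length (right), with 1 point per library. SURF4, at 8.80 and 36.4 FPKM as deposited, and TMED2, at 45.7 and 73.5 FPKM, have the widest gaps, and LMAN1 and MCFD2 come close together on merged exons.

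SURF4 is a multi-pass membrane protein and the human counterpart of yeast Erv29. Its gene, ENSG00000148248, lies at chr9:133361449-133376166 on the minus strand in the GRCh38 annotation, with 9 annotated transcripts. Its difference on the log2(FPKM + 1) scale, DOX(-) minus DOX(+), was -1.93, the 20th lowest among the 11525 genes that reached 1 FPKM in at least 1 library. SURF4 made up 3.73% of the summed FPKM of the receptor group in DOX(-) and 11.8% in DOX(+). Set against LMAN1, the other well-known export receptor, SURF4 was at 0.286 of its deposited level in DOX(-) and at 1.12 of it in DOX(+). Per merged kilobase SURF4 was at 0.550 of the LMAN1 level in DOX(-) and at 2.15 times it in DOX(+), so this comparison depends on the length used. The table gives 1 value per gene, so a difference confined to some of the SURF4 transcripts was not tested.

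The SURF4 gene sits in the surfeit cluster, a tight run of housekeeping genes with unrelated functions, and none of its 5 listed neighbours passed 1.5-fold. SURF2, on the other strand, whose 3′ end lies 280 bases from that of SURF4, measured 6.02 FPKM in DOX(-) against 6.05 in DOX(+), a log2 difference of -0.01. SURF1, an assembly factor of cytochrome oxidase, measured 5.15 and 5.06 FPKM. MED22, a Mediator subunit, measured 1.81 and 2.30 FPKM, a log2 difference of -0.23. RPL7A, a ribosomal protein gene, measured 135.5 and 115.2 FPKM, a log2 difference of 0.23. SURF6, a nucleolar protein gene, was the cluster member with the largest difference after SURF4, at 10.5 and 14.5 FPKM and -0.43 on the log2 scale. STKLD1, outside the listed neighbours, lies on the other strand 201 bases from SURF4 and had 0 FPKM in DOX(-) and 0.0318 in DOX(+). No other annotated gene model shares exonic bases with SURF4.

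Among the p24 proteins in the group, all 3 were lower in DOX(-), by unequal amounts. TMED2, of the beta subfamily, was at 45.7 and 73.5 FPKM, a log2 difference of -0.67 from 4868 and 8746 fragments, the 334th lowest of the 11525 genes. TMED9, of the alpha subfamily, had 26.0 FPKM in DOX(-) against 34.8 in DOX(+), a log2 difference of -0.41 and a plain ratio of 0.746 with an interval of 0.705 to 0.790. TMED10, of the delta subfamily and the partner with which TMED2 forms complexes, was at 29.7 and 31.7 FPKM, a log2 difference of -0.09 and a ratio of 0.936 with an interval of 0.899 to 0.974. TMED2 stood at 1.54 times the deposited level of TMED10 in DOX(-) and at 2.32 times in DOX(+), and per merged kilobase at 1.46 and 2.19 times. The sum over these 3 genes was 101.3 FPKM in DOX(-) against 140.0 in DOX(+). The processed pseudogenes of TMED10 had little signal, TMED10P1 at 0.553 and 0.495 FPKM and TMED10P2 at 0 and 0.0882 FPKM.

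The KDEL receptors recognise the retrieval signal of chaperones such as BiP. KDELR1 measured 26.8 FPKM in DOX(-) against 32.5 in DOX(+), a log2 difference of -0.27 and a ratio of 0.824 with an interval of 0.777 to 0.875. KDELR2 measured 26.5 and 27.0 FPKM, a ratio of 0.981, and its interval of 0.934 to 1.03 included equal levels. KDELR2 shares exonic bases on the same strand with DAGLB, itself at 5.27 and 4.96 FPKM, so how fragments were divided between them is uncertain. KDELR3 had 1 fragment in DOX(-), 0.0211 FPKM, and was listed at 0 in DOX(+), where a count of 0 allows up to 0.0567 FPKM. It was under the floor of 3 fragments in both libraries, so it has no fold, and KDELR1 and KDELR2 carried nearly the whole KDEL receptor sum of 53.3 and 59.5 FPKM.

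The lectin receptors and their partner were close to level between the libraries. LMAN1, a mannose-binding lectin also called ERGIC-53, measured 30.8 FPKM in DOX(-) against 32.6 in DOX(+), a log2 difference of -0.08. MCFD2, the calcium-binding partner that LMAN1 needs for the coagulation factors, measured 10.9 and 11.6 FPKM, also -0.08. LMAN2, called VIP36, was the only measured member higher in DOX(-), at 30.8 and 28.0 FPKM, a log2 difference of 0.13 and a ratio of 1.10 with an interval of 1.04 to 1.16. The sum over the 3 was 72.5 FPKM in DOX(-) against 72.2 in DOX(+). MCFD2 overlaps TTC7A on the opposite strand, at 5.24 and 6.10 FPKM, and use of strand in the counting was not given.

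**Figure D2:**
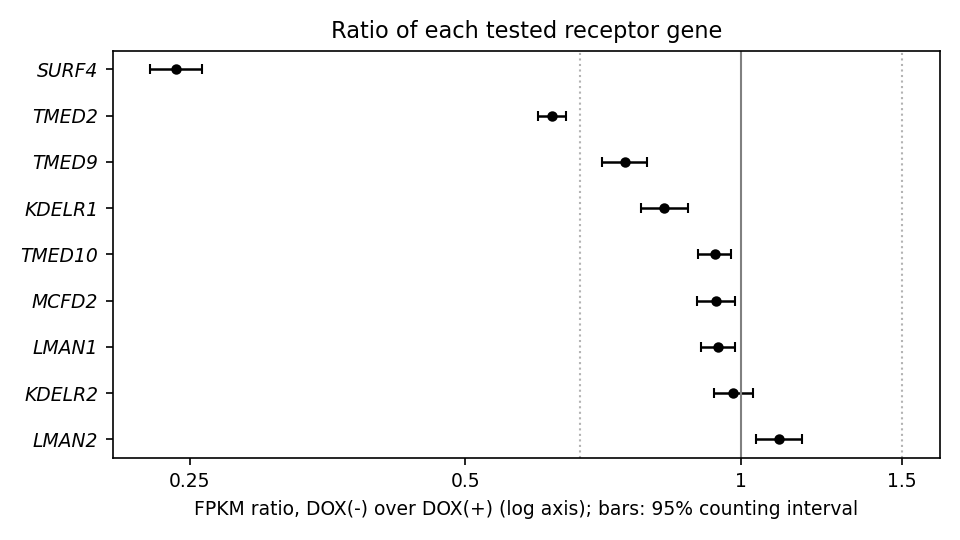
Ratio of DOX(-) to DOX(+) FPKM for the 9 receptor genes with a measurable level, on a log axis, with bars for the 95% counting interval on recovered fragments. SURF4 at 0.242 and TMED2 at 0.622 lie below the 1.5-fold line, and LMAN2 at 1.10 is the only point above equality.

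Counted by a rule of size, 2 of the 9 members with at least 1 FPKM in either library were at least 1.5-fold lower in DOX(-), SURF4 and TMED2, and 0 were higher. Over all 11525 genes so measured, 4.06% were lower by that fold (468 genes) and 3.11% were higher (358 genes). At 2-fold the lower count was 1 member, SURF4, beside 1.2% of all genes, and 0 members were higher beside 0.833%. Because SURF4 was known to differ when the group was put together, nothing is read from the count that includes it. Without SURF4 the count was 1 of 8 members, TMED2. Leaving SURF4 out, 7 of 8 members were below 0 on the log2 scale, with a median of -0.09. Over all measured genes 53.4% were below 0, with a median of -0.02. The 7 include KDELR2, whose interval included equal levels, and others close to 0, so nothing is read from this split either. Scaled to the total without mitochondrial genome genes, the split over all genes was 591 lower and 291 higher, and the members' counts were as before.

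Strongly expressed genes have less counting noise, so the members were also set beside genes of like level. Among 2205 protein-coding genes whose mean FPKM lay in the range of the 9 members, 1.68% were at least 1.5-fold lower in DOX(-) and 1.9% were higher. At 2-fold 9 of these genes (0.408%) were lower, SURF4 among them, and 0.68% were higher. The other 7 members, all within 1.5-fold, lay between -0.41 and 0.13 on the log2 scale. The summed level of the group was 236.0 FPKM in DOX(-) against 308.2 in DOX(+), and without SURF4 and TMED2 it was 181.5 and 198.3 FPKM.

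**Figure D3:**
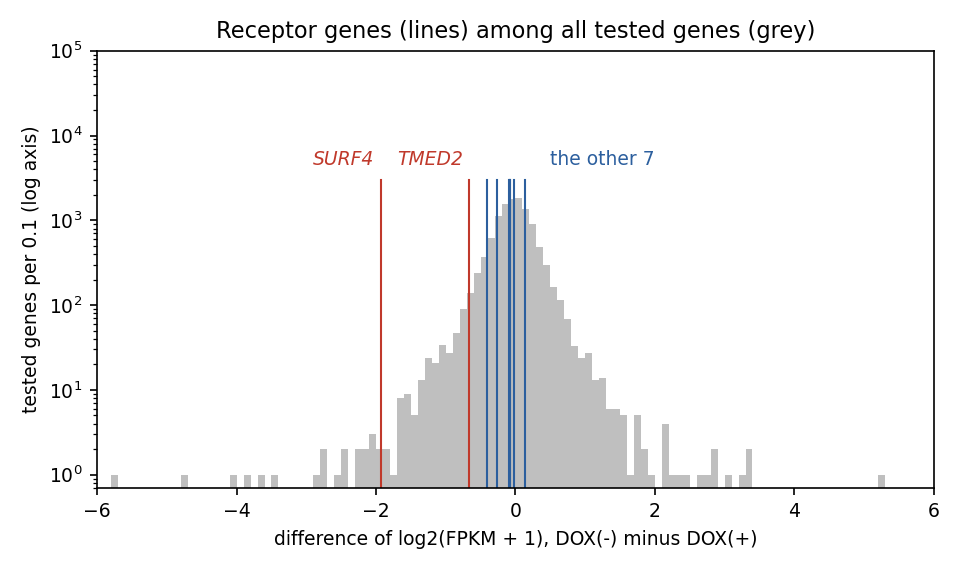
Histogram of the difference of log2(FPKM + 1), DOX(-) minus DOX(+), on the horizontal axis, with the number of the 11525 measured genes per bin on a log vertical axis (grey). Vertical lines mark the receptors: SURF4 at -1.93 lies in the sparse lower tail, TMED2 at -0.67 on the lower flank (both red), and the other 7 (blue) between -0.41 and 0.13.

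The promoter search covered 300 bases for each RefSeq start, 250 before and 50 after it, on both strands, and 8 of the 10 members had a window. The letters ACGTGGC, chosen after the sequences were seen, occurred in the windows of SURF4, TMED2 and KDELR3, 3 of 8 members, and in 3.95% of all 27305 genes with a window. Because the letters were picked from these windows, nothing is read from the members' count. The element lies 53 bases before the RefSeq start of SURF4, 95 before that of TMED2 and 47 before that of KDELR3. In SURF4 it falls inside exons of 3 of the 9 annotated transcripts, whose start lies further upstream. KDELR3, with the same element on the other strand, had almost no fragments.

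The genes that hold the element were then set beside all genes with a window. SURF4 and TMED2, whose windows led to the choice of the letters, were left out. Of the other 455 measured genes with ACGTGGC in a window, 3.30% were at least 1.5-fold lower in DOX(-) and 2.64% were higher, with a median log2 difference of -0.05. Among all 7597 measured genes with a window, 2.65% were lower and 2.11% higher, with a median of -0.02. The cyclic AMP response element TGACGTCA (2.25% of genes), the endoplasmic reticulum stress element, CCAAT and CCACG with 9 bases between (0.0916%), and its second form, ATTGG and CCACG with 1 base between (0.0696%), occurred in 0 of the 8 member windows. The unfolded protein response core TGACGTGG occurred in KDELR3, at a site that overlaps its ACGTGGC, and in 0.927% of genes. The E-box CACGTG (8.77% of genes) occurred in MCFD2 and TMED10, and CCAAT (39.7%) in LMAN1, MCFD2, LMAN2 and TMED2.

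The rest of the pathway was described from 7 lists of 109 genes, of which 90 were measured. At 1.5-fold 2 were lower in DOX(-), TMED1 and ARFGAP1, and 2 were higher, ARF1 and TXNDC5. That is 2.22% in each direction, beside 4.06% lower and 3.11% higher over all measured genes. Single lists, here and below, are short, so their counts are not read as results. The median over the 90 was 0.06, with 53 genes above 0 and 37 below. For the receptors without SURF4 it was -0.09, with 7 of 8 below 0, and nothing is read from that contrast.

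Of the other p24 genes 1 of 6 measured was lower and 0 were higher, with a median log2 difference of -0.10. TMED1, of the gamma subfamily, had 2.68 FPKM in DOX(-) against 5.32 in DOX(+), a log2 difference of -0.78 from 188 and 418 fragments. TMED1 shares exonic bases with DNM2 on the opposite strand, so its difference is uncertain while use of strand is not known. TMED5 was at 5.99 and 7.41 FPKM (-0.27) and TMED7, which shares its locus with a readthrough gene, at 12.1 and 14.4 FPKM (-0.24). Of the other cargo receptors and adaptors 0 of 13 measured passed in either direction, with a median of 0.05. MIA3, the TANGO1 protein that loads bulky collagen, was at 4.30 and 6.56 FPKM (-0.51). By plain ratio, without the added 1 FPKM, MIA3 was 1.52-fold higher in DOX(+). M6PR, a mannose 6-phosphate receptor, was at 9.93 and 7.97 FPKM (0.29), and CNIH4, a cornichon adaptor, at 6.01 and 5.01 FPKM (0.22).

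By list median the coats that the receptors bind were near level, though single genes such as ARF1 were not. For COPII 0 of 13 measured genes passed in either direction, with a median of 0.03. SAR1B, the GTPase that starts that coat, was at 2.09 and 3.18 FPKM (-0.43), and the coat subunits followed, SEC23A with 3.58 and 4.46 FPKM (-0.25) and SEC31A with 6.69 and 7.92 FPKM (-0.21). For COPI 1 of 16 was higher and 1 lower, with a median of 0.12. ARF1, the GTPase that recruits COPI, was the largest difference of all 7 lists, 49.9 FPKM in DOX(-) against 21.3 in DOX(+), or 1.19 on the log2 scale. ARFGAP1, which switches ARF1 off, was at 1.24 and 2.45 FPKM (-0.63). COPZ1, a coat subunit, was at 11.5 and 17.4 FPKM (-0.56), just short of 1.5-fold on that scale. By plain ratio COPZ1 and SAR1B were each 1.52-fold higher in DOX(+), past 1.5-fold. Of 19 tethers and SNAREs 0 passed, with a median of -0.03. STX5, a Golgi SNARE, was at 3.02 and 1.87 FPKM (0.48). By plain ratio STX5 was 1.61-fold higher in DOX(-), past 1.5-fold, since adding 1 FPKM shrinks the difference of low genes. NAPA, which helps take SNARE complexes apart, was at 10.9 and 7.53 FPKM (0.48) and RAB1B at 62.8 and 52.5 FPKM (0.25).

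In the lists of endoplasmic reticulum luminal proteins and of soluble cargo, no measured gene was 1.5-fold lower in DOX(-). The luminal list was drawn by location, so not every gene in it need be a client of a receptor. Of 17 luminal proteins of the endoplasmic reticulum 1 was higher and 0 lower, with a median of 0.11. TXNDC5, a disulfide isomerase, was at 88.5 and 55.3 FPKM (0.67), uncertain because a readthrough gene shares its exons. MANF was at 42.2 and 35.1 FPKM (0.26) and DNAJB11, a BiP cochaperone, at 8.51 and 10.5 FPKM (-0.27). Of 6 soluble cargo genes measured 0 passed in either direction, with a median of -0.01. NUCB1 was at 16.7 and 12.7 FPKM (0.37), SDF4, the Cab45 protein of the Golgi lumen, at 18.1 and 21.9 FPKM (-0.26) and PSAP, the saposin precursor, at 105.2 and 88.4 FPKM (0.25). Of the promyelocyte markers, which hold granule proteins but also transcription factors and a surface receptor, 0 of 8 measured passed in either direction, with a median of 0.14. The largest differences were those of AZU1, azurocidin (76.0 against 52.3 FPKM, 0.53), of the transcription factor CEBPE (8.93 against 12.6 FPKM, -0.46) and of the ribonuclease RNASE2 (106.3 against 141.2 FPKM, -0.41).

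**Figure D4:**
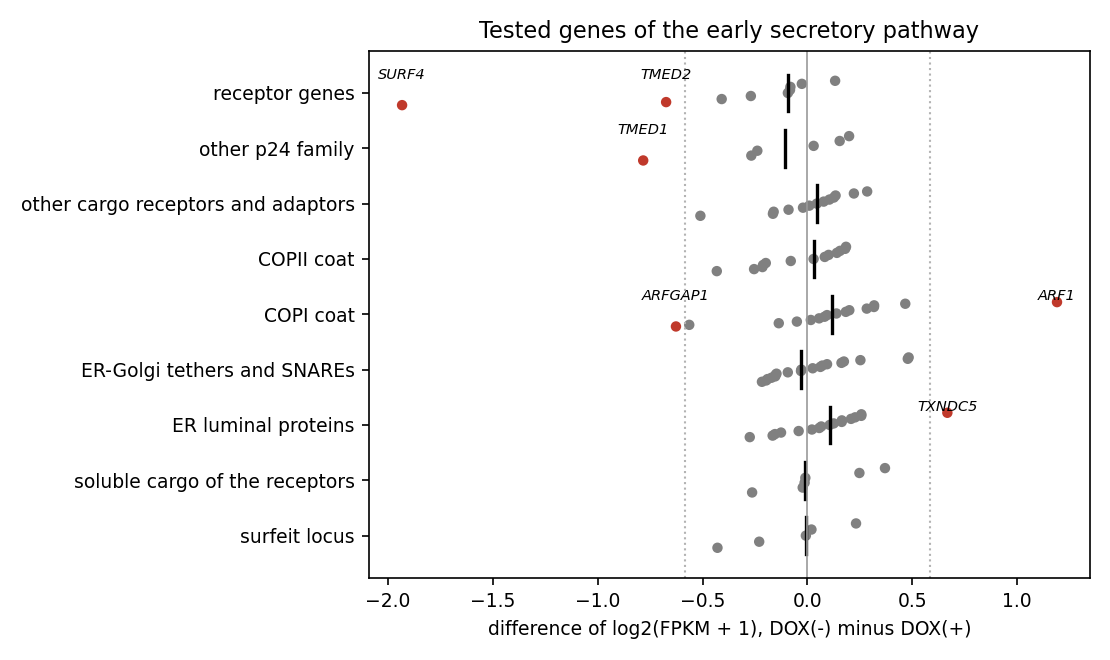
Log2 difference, DOX(-) minus DOX(+), of each measured gene in the receptor group, the 7 pathway lists and the surfeit cluster. Black bars are list medians, dotted lines mark 1.5-fold, points are spread vertically within a row for visibility only, and red points are past 1.5-fold. The list medians lie between -0.10 and 0.12, and SURF4 lies lowest of all plotted genes.

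The protein-coding genes outside overlapping gene models whose pair of levels lay nearest to that of SURF4 were CAB39, SNU13 and NCOA5. Nearness was the Euclidean distance between pairs of log2(FPKM + 1) values over the 2 libraries, and was 0.82, 0.86 and 0.90. CAB39 was at 15.0 FPKM in DOX(-) against 26.9 in DOX(+), SNU13 at 8.10 and 19.7 FPKM, and NCOA5 at 13.2 and 21.8 FPKM. All 3 were lower in DOX(-), and by less than SURF4. They were picked by nearness to the SURF4 levels in both libraries, so being lower in DOX(-) follows from the choice.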

How the data were processed

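The deposited table gives 1 FPKM value per gene and library, per the file headers. HISAT2 2.1.0, StringTie 1.3.4b, edgeR and CASAVA 1.8 are listed, without the step each served, in the submitters' processing notes, as are the builds GRCh38 and hg38. Use of strand is not given in the sources used here. Gene models were those of GENCODE 29, in which 58039 of 58302 table genes were found. Fragments and scaling totals were recovered from the authors' FPKM and the summed length of distinct exons, a length chosen after the data were seen. 1 FPKM is worth 16.6 fragments per kilobase in DOX(-) and 18.5 in DOX(+). Differences are DOX(-) minus DOX(+) of log2(FPKM + 1), which understates low genes, for genes that reached 1 FPKM in at least 1 library. No test was run, and 1.5-fold is a rule of size. Ratio intervals are exact conditional 95% (Clopper-Pearson) intervals on recovered fragments and level intervals are exact Poisson intervals. The planned intervals used the shortest transcript. The genes named were all members, the surfeit cluster, EIF2S3, in each list the 3 genes with the largest difference at 2 FPKM or more and those past 1.5-fold, and the 3 nearest to SURF4. MPO, ELANE, the markers at 0, the pseudogenes, STKLD1 and genes that overlap members or TMED1 were named after their values were seen. Members and lists were chosen with earlier results of these data known. Python 3.11.15, numpy 2.4.6, pandas 2.3.3, scipy 1.17.1 and matplotlib 3.10.9 were used, and the scripts were tested on simulated data. Promoter sequences are from RefSeq, GRCh38.p14.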

Additional observations from a re-analysis of the deposited data

How the results depend on the processing

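Alternatives were 3 other scalings, pseudocounts of 0.1 and 0.5, other fold thresholds, no filter on low values and, chosen after seeing the data, recovered fragments, merged exon length and genes free of overlapping models. The SURF4 difference ranged from -2.04 to -1.91 on the log2 scale and that of TMED2 from -0.74 to -0.65. The count of lower members was 1 at 2-fold in place of 2. With a pseudocount of 0.1, 4 pathway genes were lower in place of 2 and 3 were higher in place of 2. With the total without mitochondrial genome genes, 3 pathway genes were lower. With TMM scaling the KDELR2 difference was 0.0016, above 0. The median of soluble cargo turned positive, 0.013 with median-of-ratios and 0.017 with TMM scaling. Scaled to the total without mitochondrial genes, the medians of other cargo receptors and of COPII turned negative, -0.011 and -0.033, and without a filter that of COPII was -0.021. The cause was not tested. With fragments estimated from the shortest transcript, the intervals of LMAN1, MCFD2, LMAN2, TMED9 and TMED10 included equal levels. No paired analysis was possible because each condition has 1 library. Depth limits KDELR3, at 1 and 0 fragments.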
